A study of Mus musculus with 4 samples.

Results

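Blood endothelial cells line the arteries, capillaries and veins of the prostate. They were picked out of a mouse prostate cancer data set by their RNA, and 567 of 31165 kept cells qualified, where a kept cell has 500 UMIs or more from 200 genes or more, and 20% mitochondrial UMIs or fewer. A UMI is a molecular tag that counts 1 captured RNA molecule. A cell qualified with at least 5 UMIs over Pecam1, Cdh5, Flt1 and Plvap, of which at least 2 came from Cdh5 and Flt1, no UMI of the leukocyte gene Ptprc or of the lymphatic gene Prox1, and at most 1 UMI of the epithelial gene Epcam. These 7 genes chose the cells, so their values describe the choice and are not findings. Pecam1, Cdh5, Flt1 and Plvap all stand in the core endothelial list below. Some of them also stand in the venous, VEGF pathway, adhesion and junction lists, and no count was made without them.

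Dissociated prostates were profiled in 4 droplet single-cell RNA libraries, 1 per group. The groups were mice with a prostate-restricted Trp53 deletion and ADT at 5.5 months of age (Trp53-deleted ADT), mice with that deletion and no ADT at 3.5 months (Trp53-deleted), mice without the deletion and with ADT at 5.5 months (Trp53-intact ADT), and mice without either at 4 months (Trp53-intact). ADT is not spelled out in the labels and is read here as androgen deprivation therapy. All 4 groups share the rest of their genotype, so none is a wild-type prostate, and the labels name neither the promoter that restricts the deletion nor the number of animals pooled. Because each group is 1 library, no difference below has a replicate check, and an effect of ADT cannot be told apart from one of age or of the library, nor one of Trp53 status from one of the library. Numbers of genes called higher or lower go by size alone, at 1.5-fold or more. Intervals are exact 95% Poisson or Clopper-Pearson intervals and cover counting error only.

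As background, endothelial cells differ along the vascular tree. Arterial cells use Notch signalling and gap-junction proteins, capillary cells take up fatty acids and exchange solutes, and postcapillary venous cells display selectins and chemokine receptors that let leukocytes leave the blood. Sprouting vessels have tip cells that secrete apelin and lay down basement membrane, and endothelial cells of every bed respond to interferon with guanylate-binding proteins and antigen presentation. In rats, castration is known to reduce blood flow and vessels in the prostate.

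The gate took 237 cells in Trp53-deleted ADT, 97 in Trp53-deleted, 89 in Trp53-intact ADT and 144 in Trp53-intact. That was 2.46% (interval 2.16 to 2.79%) of kept cells in Trp53-deleted ADT and 1.70% (1.38 to 2.07%) in Trp53-deleted. It was 1.15% (0.923 to 1.41%) in Trp53-intact ADT and 1.78% (1.5 to 2.09%) in Trp53-intact. The share was lower with ADT than without it in Trp53-intact mice, and higher with ADT under Trp53 deletion, but this second direction depended on which cells were counted. Without cells holding 3 or more stromal UMIs it turned, at 1.03% in Trp53-deleted ADT against 1.19% in Trp53-deleted. It turned also in the endothelial clusters once the C1qa-led group described below was left out, at 1.25% in Trp53-deleted ADT against 1.46% in Trp53-deleted. Cells positive for the endothelial genes numbered 353 in Trp53-deleted ADT, 127 in Trp53-deleted, 126 in Trp53-intact ADT and 203 in Trp53-intact. Of these, 62 in Trp53-deleted ADT, 18 in Trp53-deleted, 21 in Trp53-intact ADT and 22 in Trp53-intact had a Ptprc UMI, and 13 to 61 per library had a Prox1 UMI. Just inside the threshold, members with 5 or 6 gate UMIs numbered 23 in Trp53-deleted ADT, 6 in Trp53-deleted, 7 in Trp53-intact ADT and 13 in Trp53-intact, and 30.8 to 52.2% of them had an Emcn UMI. Just outside it, cells with 3 or 4 gate UMIs numbered 37 in Trp53-deleted ADT, 14 in Trp53-deleted, 30 in Trp53-intact ADT and 33 in Trp53-intact, and 18.9 to 46.7% had one. No barcode was shared between libraries among the members, although 12 to 29 barcodes recurred in each pair of libraries over all kept cells. Libraries held 58088678 to 148030357 UMIs, with medians of 4081 to 5562 per kept cell, and members had medians of 9361 UMIs in Trp53-deleted ADT, 5232 in Trp53-deleted, 7884 in Trp53-intact ADT and 9356 in Trp53-intact.

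Endothelial genes that the gate did not use were looked at in the endothelial clusters described below. The Cdkn2a-led and mural-led groups had been left out of these first, so the shares do not check the whole gate. Emcn, a surface sialomucin of capillary and venous endothelium, and Egfl7, a secreted endothelial factor, were compared at a fixed depth of 2000 UMIs per cell. Emcn was then found in 72.7% of 198 endothelial cells of Trp53-deleted ADT, 75.7% of 70 of Trp53-deleted, 62.0% of 71 of Trp53-intact ADT and 71.8% of 110 of Trp53-intact. Egfl7 was found in 78.3% of those cells in Trp53-deleted ADT, 80.0% in Trp53-deleted, 63.4% in Trp53-intact ADT and 81.8% in Trp53-intact. In 500 Ptprc-positive cells per library, which should lack Emcn, its share was 2.0% in Trp53-deleted ADT, 1.0% in Trp53-deleted, 0.8% in Trp53-intact ADT and 0 in Trp53-intact, so both types of cell were far apart. Median depths before thinning were 4454 to 8484.5 UMIs in the endothelial and 4174 to 9013 in the Ptprc-positive cells, and 6 to 17 shallower endothelial cells per library were left out. Before thinning, 88.6% of the 491 cells in endothelial clusters had an Emcn UMI.

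Not every member fitted the label. Clustered on their own, the 567 cells gave 10 groups, and one of 17 cells was led by the cell-cycle inhibitor gene Cdkn2a with Spp1, Lgals1 and Col1a1, which are not endothelial genes. These 17 cells were very deep, at a median of 96133 UMIs against 7356 in the 491 cells of the endothelial clusters, and they reached 5 gate UMIs while the gate genes made up 61.4 UMIs per 1000000 (CPM), against 4423 CPM. Emcn was present in 17.6% of them. Of the 17 cells 14 came from Trp53-deleted ADT, where the endothelial clusters held 51.6% of member UMIs. That share was 81.5% in Trp53-deleted, 77.9% in Trp53-intact ADT and 74.0% in Trp53-intact. A second group of 59 cells (14 in Trp53-deleted ADT, 10 in Trp53-deleted, 11 in Trp53-intact ADT and 24 in Trp53-intact) was led by the pericyte genes Rgs5, Notch3 and Higd1b with Ccl11 and C3, and had gate genes at 2437 CPM and Emcn in 78.0%. Levels are therefore given for the 491 cells outside both groups (209 in Trp53-deleted ADT, 87 in Trp53-deleted, 77 in Trp53-intact ADT and 118 in Trp53-intact), called the endothelial clusters, and gene counts are given for all members and for these cells. This choice was made after the clusters were seen.

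**Figure D1:**
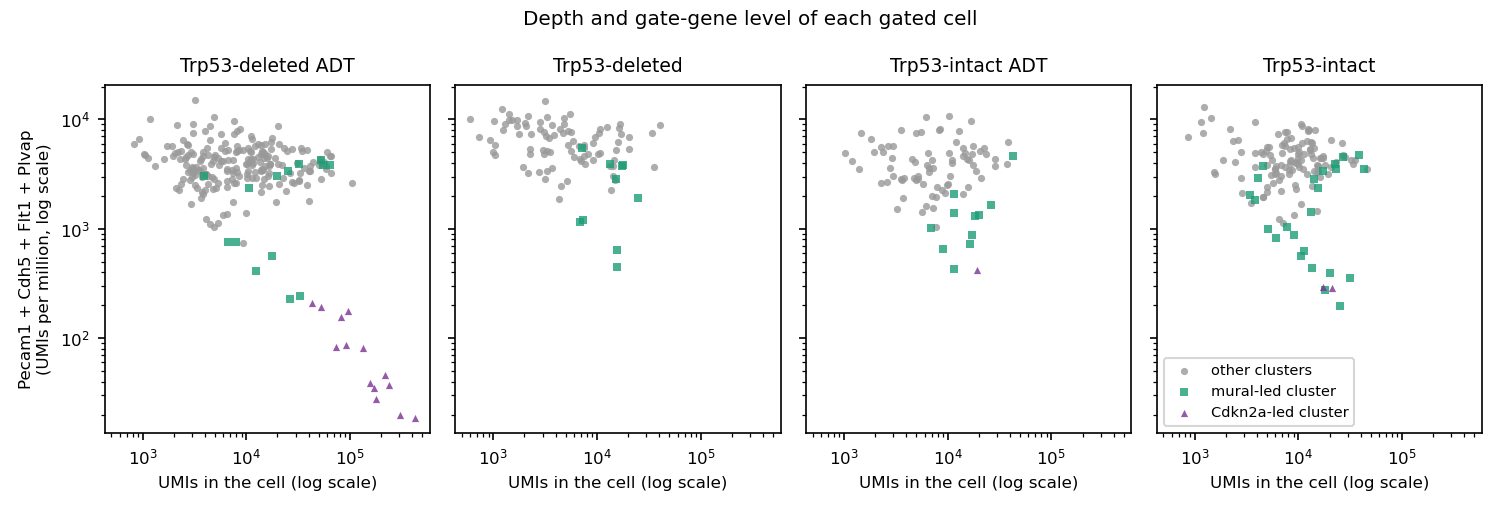
Each point is 1 gated cell, with its UMIs on a log x axis and the summed level of Pecam1, Cdh5, Flt1 and Plvap in CPM on a log y axis, in 1 panel per library. Cells of the Cdkn2a-led cluster (triangles, 14 of 17 in Trp53-deleted ADT) lie far right and low, and the mural-led cluster (squares) spreads below the endothelial clusters (circles).

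The endothelial clusters followed the vessel beds in part. Marker lists named 1 arterial-like cluster (36 cells, led by Cytl1, Sema3g, Edn1, Cldn5, Fbln5, Gja5 and Bmx), 1 venous-like (65 cells, led by Ackr1, Glycam1, Selp, Ehd3, Sele and Vwf), 1 capillary-like (24 cells, led by Lpl, Timp4, Tcf15, Cd36, Meox2 and Fabp4) and 1 cycling-like (23 cells, led by Mki67, Cenpf and Top2a). Another 4 stayed unnamed. The one with the most cells held 146, was led by Hspa1a, Clic5, Mal, Pltp, Igfbp3 and Prom1, and is called cluster 1. It is the only endothelial cluster that every library filled with at least 15 cells, at 15 in Trp53-deleted ADT, 41 in Trp53-deleted, 32 in Trp53-intact ADT and 58 in Trp53-intact, and it therefore serves as a comparison between like cells. A cluster of 99 cells, 89 of them in Trp53-deleted ADT, was led by the macrophage gene C1qa. Most of its other leading genes were also of macrophages or other leukocytes (Lyz2, C1qb, Lcp2, H2-Eb1, Cd74 and Tyrobp), beside Mest and Apln. Its gate genes stood at 3708 CPM, which describes the choice of cells. Emcn, which the gate did not use, had a UMI in 87.9% of its cells, against 78.0% in the mural-led group that was left out. The C1qa-led cluster was kept among the endothelial clusters. Whether it holds doublets or free macrophage RNA was not tested, and results that it moves by more than 1.5 times are given below without it as well. The ratios of macrophage genes flagged at the end are given with it only. One of 62 cells led by Dusp2, Rgcc and Icam1 had 56 in Trp53-deleted ADT, so each of both clusters may be that library and not a type. One of 36 cells was led by Lyve1, Fgl2 and Cp, genes shared with lymphatic endothelium. The gate took no cell with a Prox1 UMI, so the lack of Prox1 there says nothing on whether these cells are lymphatic. The venous-like cluster had 1 cell in Trp53-deleted ADT and the capillary-like cluster 20 of its 24 in Trp53-deleted, which bears on the venous and capillary lists below. Since the genes that define clusters differed between libraries, cluster sizes are not compared between groups.

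Trp53, the deleted gene (mm10 chr11:69580359-69591873, plus strand), was lower in the deleted libraries in epithelium and not in endothelium. In Epcam-positive cells with at least 2 Epcam UMIs it was at 19.5 CPM (interval 16.7 to 22.8) in Trp53-deleted ADT and 18 (15.8 to 20.4) in Trp53-deleted, against 84.8 (80.1 to 89.6) in Trp53-intact ADT and 57.9 (54.9 to 61.0) in Trp53-intact. In the endothelial clusters it was at 131 CPM (118 to 145) in Trp53-deleted ADT and 73.9 (54.1 to 98.6) in Trp53-deleted, against 91.8 (71.3 to 116) in Trp53-intact ADT and 56.0 (43.5 to 71.0) in Trp53-intact. Epithelial cells of the deleted libraries thus stood below those of the intact libraries, while endothelial cells of the deleted libraries were not below those of the intact libraries at the same ADT status, with intervals that overlapped without ADT. A 3' count can include RNA of a deleted allele, and the labels do not say which part of the gene is removed. Comparisons by Trp53 status below are comparisons of endothelium in mice whose prostate epithelium, per the labels, carries the deletion.

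Genes that p53 is known to switch on were lower more often than higher in Trp53-deleted than in Trp53-intact endothelium, and not so between the ADT libraries. Of 25 p53 target genes measured in the endothelial clusters, 8 were lower and 4 higher in Trp53-deleted than in Trp53-intact (median log2 ratio -0.13), where 8.46% of all genes were lower, 24% higher and the median gene was at 0.22. With ADT, of 28 measured 3 were lower and 6 higher in Trp53-deleted ADT than in Trp53-intact ADT (median -0.19), where 13.5% of all genes were lower and 17.2% higher. Cdkn1a, the p21 cell-cycle inhibitor, stood at 162 CPM in Trp53-deleted ADT against 336 in Trp53-intact ADT, and at 106 in Trp53-deleted against 270.3 in Trp53-intact. Cdkn1a is also an immediate early response gene, and the handling genes described below were lower in the same libraries, but their part in its difference was not tested. Mdm2, which targets p53 for degradation, was at 34.1 CPM in Trp53-deleted ADT against 51.3 in Trp53-intact ADT, and at 46.6 in Trp53-deleted against 36.3 in Trp53-intact. Fas, a death receptor, was lower in Trp53-deleted ADT (18.1 CPM) than in Trp53-intact ADT (117 CPM).

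Over all genes with at least 50 UMIs in both libraries together, differences were common and depended on which cells were counted. With ADT in Trp53-deleted mice, 2225 of 9270 genes (24%) were at least 1.5-fold higher and 2762 (29.8%) lower over all members, and 1184 (16.1%) and 1715 (23.3%) of 7369 in the endothelial clusters. ADT in Trp53-intact mice gave 600 higher (9.48%) and 445 lower (7.03%) of 6327 genes, and 543 (10.4%) and 365 (6.99%) of 5219 in the endothelial clusters. Trp53-deleted against Trp53-intact with ADT gave 2308 higher (25%) and 1884 lower (20.4%) of 9249 genes, and 1267 (17.2%) and 994 (13.5%) of 7348. Without ADT that comparison gave 1510 higher (24.1%) and 554 lower (8.85%) of 6259, and 1246 (24%) and 440 (8.46%) of 5199. These percentages are the background against which each gene list is read. Over all members the median log2 ratio of all genes was -0.13 for ADT in Trp53-deleted mice, 0.08 for ADT in Trp53-intact mice, 0.02 for Trp53 status with ADT and 0.22 for Trp53 status without it. Genes of the lists below are described from 20 UMIs upward, a lower limit than the 50 behind these percentages. With the median set to 0, the split over all members became 407 higher and 576 lower for ADT in Trp53-intact mice, and 775 higher and 970 lower for Trp53 status without ADT, so more genes were then lower than higher.

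ADT in the Trp53-deleted mice went with lower levels of fatty acid and capillary genes. In the endothelial clusters 14 of 21 measured fatty acid genes were lower and none higher (median log2 ratio -1.49), and 13 of 17 capillary genes were lower and none higher (median -2.20), where 23.3% of all genes were lower and the median gene was at -0.11. Over all members the counts were 14 of 21 and 16 of 17. In cluster 1 alone 8 of 13 fatty acid genes (median -0.69) and 8 of 14 capillary genes (median -0.62) were lower, where 28.2% of all genes were, so the difference was smaller in that cluster. In Trp53-intact mice ADT went with 5 of 17 fatty acid genes lower and 2 higher (median -0.40), and 2 of 15 capillary genes lower and 1 higher (median -0.23). Of all genes 6.99% were lower and 10.4% higher there.

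Fabp4, the fatty acid carrier of capillary endothelium (mm10 chr3:10204088-10208576, minus strand), stood at 546 CPM (519 to 574) in Trp53-deleted ADT and 6432 (6235 to 6635) in Trp53-deleted, and at 1914 (1816 to 2016) in Trp53-intact ADT and 4389 (4272 to 4509) in Trp53-intact. Its log2 ratio with ADT was -3.55 in Trp53-deleted mice and -1.20 in Trp53-intact mice, so it was lower with ADT in both genotypes. At a fixed 2000 UMIs per cell, Fabp4 was found in 12.1% of endothelial cells of Trp53-deleted ADT and 54.3% of Trp53-deleted, and in 35.2% of Trp53-intact ADT and 54.5% of Trp53-intact, against 1.4 to 5.2% of Ptprc-positive cells. Without the C1qa-led cluster Fabp4 was at 865 CPM and Cd36 at 121 CPM in Trp53-deleted ADT, still the lowest of the libraries. Within cluster 1 Fabp4 was at 2410.4 CPM in Trp53-deleted ADT, 5052 in Trp53-deleted, 2497 in Trp53-intact ADT and 4148 in Trp53-intact.

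Cd36, the fatty acid translocase of the luminal membrane (mm10 chr5:17781690-17888801, minus strand), was at 75.0 CPM (65.2 to 85.8) in Trp53-deleted ADT and 861 (790 to 937) in Trp53-deleted, and at 259 (224 to 299) in Trp53-intact ADT and 376 (342 to 412) in Trp53-intact. Its log2 ratio with ADT was -3.44 in Trp53-deleted mice, and -0.53 in Trp53-intact mice, where it missed 1.5-fold. Rbp7, a retinol-binding protein of capillaries that few other cells express, was at 119 CPM in Trp53-deleted ADT, 660 in Trp53-deleted, 267 in Trp53-intact ADT and 321 in Trp53-intact. The transcription factors Meox2 and Tcf15, which pair to switch on Cd36 and Lpl in mouse, were also lower with ADT in Trp53-deleted mice (log2 ratios -2.06 and -2.41). Gpihbp1, which anchors lipoprotein lipase to capillaries, differed less, at 516 CPM in Trp53-deleted ADT, 768 in Trp53-deleted, 310 in Trp53-intact ADT and 483 in Trp53-intact, with log2 ratios for ADT of -0.57 in Trp53-deleted mice and -0.63 in Trp53-intact mice. Other capillary genes lower with ADT in Trp53-deleted mice were the water channel Aqp1 (log2 ratio -1.52), the chemokine Cxcl12 (-2.53) and the endothelin receptor Ednrb (-2.48).

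Without ADT, the same lists were higher in Trp53-deleted mice than in Trp53-intact mice, with 12 of 20 fatty acid genes (median 0.69) and 14 of 17 capillary genes (median 1.03) higher and none lower, where 24% of all genes were higher and the median gene was at 0.22. Lipoprotein lipase, Lpl, gave the largest ratio at 251 CPM (213 to 293) in Trp53-deleted against 11.5 (6.31 to 19.4) in Trp53-intact. Lpl was also high in the other cells of that library, at 180 CPM in Trp53-deleted against 69.8 in Trp53-intact, and its part in the result was not tested. Timp4 (log2 ratio 2.49), the glycerol channel Aqp7 (2.79), Btnl9 (2.17) and Meox2 (2.13) followed. In cluster 1 alone 3 of 16 fatty acid genes and 3 of 14 capillary genes passed 1.5-fold, where 23% of all genes did, so among those cells the lists did not stand above the background. Of the 24 capillary-like cells, 20 came from Trp53-deleted and none from Trp53-intact.

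**Figure D2:**
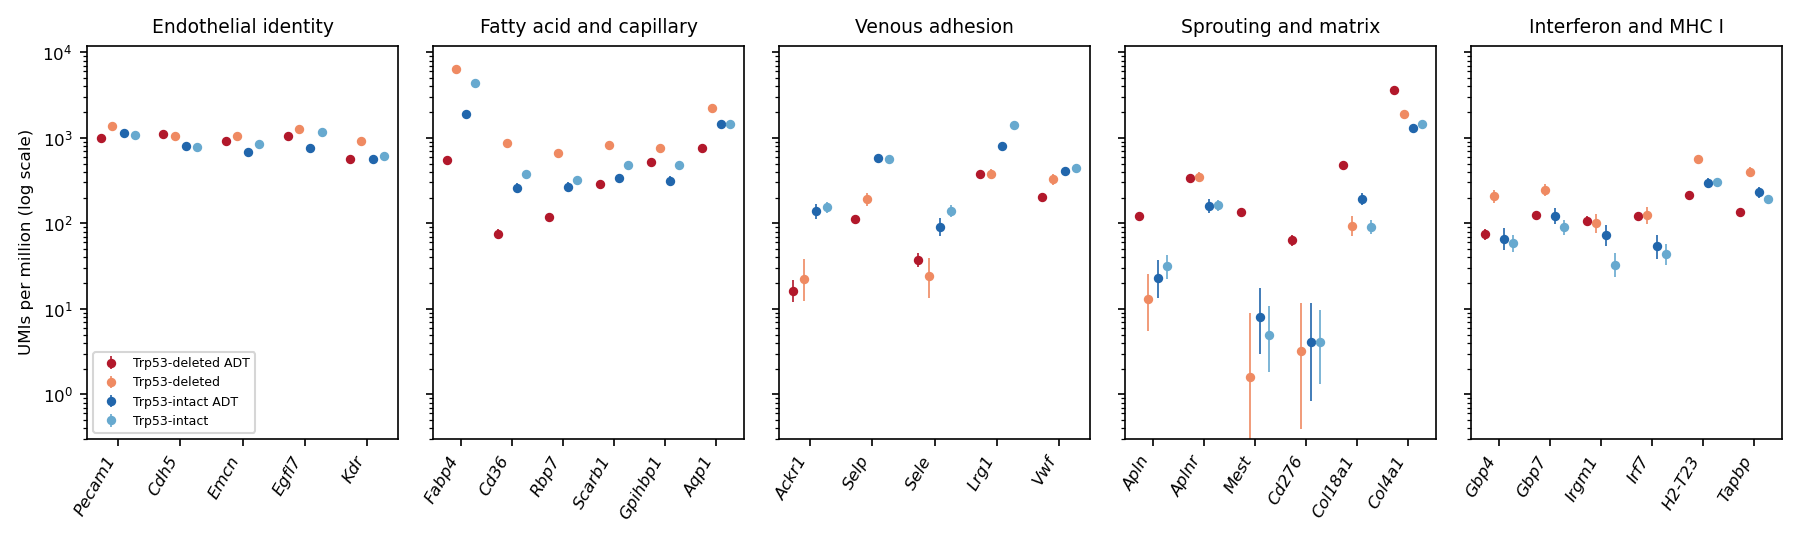
Levels in the endothelial clusters in CPM on a log axis, with exact 95% Poisson intervals as bars and 1 colour per library. Fabp4, Cd36 and Rbp7 are lowest in Trp53-deleted ADT, Ackr1, Selp and Sele are lower in both Trp53-deleted libraries than in both Trp53-intact libraries, and Apln, Mest and Cd276 are highest in Trp53-deleted ADT.

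Genes of sprouting and immature vessels were higher in Trp53-deleted ADT, in its endothelium and in its other cells. In the endothelial clusters, 12 of 22 tip and immature genes were higher and 3 lower with ADT in Trp53-deleted mice (median 0.63), and 15 of 23 were higher and 3 lower than in Trp53-intact ADT (median 0.96), where 16.1% and 17.2% of all genes were higher. Over all members, which include the very deep cells, the counts were 6 higher and 8 lower of 23 with ADT, and 9 higher and 6 lower of 23 against Trp53-intact ADT. Among the cells of cluster 1 the list went the other way with ADT, at 1 higher and 9 lower of 17 (median -0.76), from 15 cells in Trp53-deleted ADT. Without the C1qa-led cluster 10 were higher and 6 lower of 22 with ADT in Trp53-deleted mice (median 0.49). The list summed to 18600 CPM in the endothelial clusters of Trp53-deleted ADT, 10834 in Trp53-deleted, 8472 in Trp53-intact ADT and 9567 in Trp53-intact. In the other cells it summed to 7158 CPM in Trp53-deleted ADT, 2252 in Trp53-deleted, 1484 in Trp53-intact ADT and 1878 in Trp53-intact, so the difference was not limited to endothelium.

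Apln, the apelin ligand made by tip cells (mm10 chrX:48025146-48034853, minus strand), was at 122 CPM (110 to 136) in Trp53-deleted ADT and 12.9 (5.55 to 25.3) in Trp53-deleted, and at 22.9 (13.4 to 36.7) in Trp53-intact ADT and 31.3 (22.2 to 43.0) in Trp53-intact. Its receptor Aplnr, found on sprouting and venous endothelium, was at 341 CPM in Trp53-deleted ADT and 347 in Trp53-deleted, against 161 in Trp53-intact ADT and 162 in Trp53-intact. Ligand and receptor therefore differed in pattern, the ligand being high in 1 library and the receptor in both Trp53-deleted libraries. Mest, an imprinted gene active in embryonic tissue, was at 134 CPM (121 to 148) in Trp53-deleted ADT and 1.61 (0.0407 to 8.95) in Trp53-deleted, and at 8.10 (2.97 to 17.6) in Trp53-intact ADT and 4.94 (1.81 to 10.8) in Trp53-intact. Cd276, the immune checkpoint protein B7-H3, which is known on tumour vessels, was at 63.6 CPM (54.7 to 73.7) in Trp53-deleted ADT and between 3.21 and 4.12 in the other libraries. Without the C1qa-led cluster Trp53-deleted ADT had lower levels of all 3, at 77.4 CPM for Apln, 80.9 for Mest and 35.7 for Cd276, each still the highest of the libraries. Mest and Cd276 were also higher among the other cells of Trp53-deleted ADT, Mest at 21.7 CPM and Cd276 at 26.4, against at most 7.09 and 11.5 in the other libraries. At 2000 UMIs per cell, Mest was found in 12.6% of endothelial and 1.4% of Ptprc-positive cells of Trp53-deleted ADT, and Cd276 in 14.1% and 3%. Angpt2, which loosens vessels, did not follow, at 32.7 CPM in Trp53-deleted ADT (18.4 without the C1qa-led cluster), 41.8 in Trp53-deleted, 36.4 in Trp53-intact ADT and 81.6 in Trp53-intact. Esm1, a tip cell proteoglycan, was low in Trp53-intact ADT (16.2 CPM) and at 77.9 in Trp53-deleted ADT, 112 in Trp53-deleted and 148 in Trp53-intact.

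Basement membrane genes were higher in the same library. With ADT in Trp53-deleted mice 16 of 31 were higher and 6 lower (median 0.59). Against Trp53-intact ADT 17 were higher and 6 lower (median 0.64). Of all genes 16.1% were higher and 23.3% lower in the first comparison, and 17.2% and 13.5% in the second. Col18a1, the source of the angiogenesis inhibitor endostatin, was at 486 CPM (460 to 512) in Trp53-deleted ADT and 93.2 (70.8 to 120) in Trp53-deleted, and at 193 (163 to 227) in Trp53-intact ADT and 91.5 (75.3 to 110) in Trp53-intact. It was thus higher with ADT in both genotypes, at log2 ratios of 2.32 and 1.04. Col4a1, a chain of collagen IV, was at 3618 CPM in Trp53-deleted ADT and 1878 in Trp53-deleted, and at 1288 in Trp53-intact ADT and 1455 in Trp53-intact, with log2 ratios for ADT of 0.94 in Trp53-deleted mice and -0.18 in Trp53-intact mice. The collagen chaperone Serpinh1 (log2 ratio 1.71 with ADT in Trp53-deleted mice), the laminin chain Lamb1 (1.16) and the membrane protease Mmp14 (1.09) were also higher, while the protease inhibitor Timp3 (-1.64) and the laminin chain Lamb2 (-1.11) were lower. In cluster 1 alone the list was at 4 higher and 11 lower of 27 (median -0.42) with ADT in Trp53-deleted mice. There 14.3% of all genes were higher and 28.2% lower. Fibroblast markers, which share matrix genes, summed to 408 CPM in the endothelial clusters of Trp53-deleted ADT, 210.4 in Trp53-deleted, 135 in Trp53-intact ADT and 147 in Trp53-intact, with 2 of the 8 at 0 in Trp53-intact ADT and none at 0 elsewhere. In the other cells these markers summed to 9039 CPM in Trp53-deleted ADT, 8068 in Trp53-deleted, 5126 in Trp53-intact ADT and 3851 in Trp53-intact, and their part in the result was not tested.

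Cycling cells were found in Trp53-deleted ADT above all. Of 34 cell cycle genes 32 were higher with ADT in Trp53-deleted mice (median 2.31) and 30 higher than in Trp53-intact ADT (median 2.12), none being lower. Of all genes 16.1% and 17.2% were higher there. The list summed to 4110 CPM in the endothelial clusters of Trp53-deleted ADT, 1047 in Trp53-deleted, 1760 in Trp53-intact ADT and 1763 in Trp53-intact. In the other cells it summed to 4901 CPM in Trp53-deleted ADT, 1472 in Trp53-deleted, 1952 in Trp53-intact ADT and 1845 in Trp53-intact. The difference was thus not limited to endothelium. Mki67, the proliferation marker, was at 73.9 CPM (64.2 to 84.7) in Trp53-deleted ADT, at 18.1 (11.4 to 27.4) in Trp53-intact, and had no UMI in the other libraries. Against the level that 3 counts would have in those libraries, Trp53-deleted ADT was at least 15.3-fold higher than Trp53-deleted and at least 18.3-fold higher than Trp53-intact ADT. Top2a, which untangles replicated DNA, was found at 2000 UMIs per cell in 12.6% of endothelial cells of Trp53-deleted ADT, 1.43% of Trp53-deleted, none of the 71 of Trp53-intact ADT, and 1.82% of Trp53-intact. Before thinning the same cells had it in 25.3% in Trp53-deleted ADT, 1.43% in Trp53-deleted, 5.63% in Trp53-intact ADT and 8.18% in Trp53-intact. Of Ptprc-positive cells 8.2% in Trp53-deleted ADT, 3.4% in Trp53-deleted, 2.8% in Trp53-intact ADT and 3.0% in Trp53-intact had it. The cycling-like cluster held 19 cells of Trp53-deleted ADT and 4 of Trp53-intact, and among the cells of cluster 1 too few cycle genes were measured to describe (5 to 8 per comparison).

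Venous genes, some of which recruit leukocytes, were lower more often than higher in the Trp53-deleted than in the Trp53-intact libraries, with or without ADT. In the endothelial clusters 10 of 20 venous genes were lower and 3 higher in Trp53-deleted ADT than in Trp53-intact ADT (median -0.68), and 9 were lower and 4 higher in Trp53-deleted than in Trp53-intact (median -0.40), where 13.5% and 8.46% of all genes were lower. These 2 comparisons share no library. Over all members 15 and 10 of 20 were lower. In cluster 1 alone, which lacks most venous cells, 2 of 14 and 6 of 15 were lower (medians 0.17 and -0.05). Of all genes in cluster 1, 20.1% were lower with ADT and 9.82% without it. The difference with ADT was thus not seen there, while without ADT more than the share of all genes were lower, at a median of -0.05.

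Ackr1, the chemokine receptor that marks postcapillary venules (mm10 chr1:173331886-173333750, minus strand), was at 16.4 CPM (12 to 21.8) in Trp53-deleted ADT against 138 (112 to 167) in Trp53-intact ADT, and at 22.5 (12.3 to 37.7) in Trp53-deleted against 155 (134 to 179) in Trp53-intact. Selp, the stored P-selectin that starts leukocyte rolling (mm10 chr1:164115264-164150026, plus strand), was at 112 CPM (100 to 125) in Trp53-deleted ADT against 587 (533 to 645) in Trp53-intact ADT, and at 191 (158 to 229) in Trp53-deleted against 565 (523 to 608) in Trp53-intact. The intervals of the deleted and intact libraries did not overlap for either gene. For both genes, libraries of like Trp53 status lay closer together than libraries of like ADT status. Both genes lead the venous-like cluster, which had 1 cell in Trp53-deleted ADT, 12 in Trp53-deleted, 18 in Trp53-intact ADT and 34 in Trp53-intact. In cluster 1 alone the log2 ratio of Selp for Trp53 status with ADT was 0.0212, against -2.75 over all members. At 2000 UMIs per cell Selp was found in 9.60% of endothelial cells of Trp53-deleted ADT against 32.4% of Trp53-intact ADT, and in 14.3% of Trp53-deleted against 28.2% of Trp53-intact. E-selectin, Sele, was at 37.3 CPM in Trp53-deleted ADT against 90.4 in Trp53-intact ADT, and at 24.1 in Trp53-deleted against 139 in Trp53-intact. The venous glycoprotein gene Lrg1 was at 378 CPM in Trp53-deleted ADT against 798 in Trp53-intact ADT, and at 381 in Trp53-deleted against 1414 in Trp53-intact.

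Glycam1, a ligand for L-selectin made by high endothelial venules, had 7.11 CPM in Trp53-deleted ADT (1.19 without the C1qa-led cluster) against 111 in Trp53-intact ADT, and no UMI in Trp53-deleted against 83.2 CPM in Trp53-intact, which makes Trp53-deleted at least 17.3-fold lower. Ccl21a, a chemokine of lymphatic and high endothelial cells, was at 6.75 CPM in Trp53-deleted ADT against 325 in Trp53-intact ADT, and at 12.9 in Trp53-deleted against 539 in Trp53-intact. Ccl21a has near-identical copies in the mouse genome, so its count is uncertain. In the other cells of the libraries Ccl21a ran at 119 CPM in Trp53-deleted ADT, 51.7 in Trp53-deleted, 72.3 in Trp53-intact ADT and 212 in Trp53-intact. In the endothelial clusters the lymphatic list, without Ccl21a, summed to 121 CPM in Trp53-deleted ADT against 684 in Trp53-intact ADT. Without ADT it summed to 249 CPM in Trp53-deleted against 619 in Trp53-intact. The part of lymphatic cells in the Ccl21a values was not tested. Madcam1, Fut7 and Chst4, other genes of high endothelial venules, had at most 3 UMIs in the endothelial clusters of any library. The high endothelial list, which without Ccl21a holds 11 genes, summed to 271 CPM in Trp53-deleted ADT against 613 in Trp53-intact ADT. Without ADT it summed to 503 CPM in Trp53-deleted against 490 in Trp53-intact, so the list as a whole was not lower there.

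Of the genes of activated vessels, the cytokine Il6 and the adhesion molecule Vcam1 were at lower levels in both Trp53-deleted libraries than in both Trp53-intact libraries, as the venous genes above were. Il6 was at 50.1 CPM in Trp53-deleted ADT (79.1 without the C1qa-led cluster), 41.8 in Trp53-deleted, 123 in Trp53-intact ADT and 312 in Trp53-intact. Vcam1 was at 64.0 CPM in Trp53-deleted ADT, 69.1 in Trp53-deleted, 83.7 in Trp53-intact ADT and 201 in Trp53-intact, and between the ADT libraries it missed 1.5-fold. With ADT in Trp53-intact mice, 10 of 27 leukocyte adhesion and chemokine genes were lower and none higher (median -0.41), where 6.99% of all genes were lower. The neutrophil growth factor Csf3 had no UMI in Trp53-intact ADT against 70.9 CPM in Trp53-intact, so it was at least 17.5-fold lower. Cxcl10, Cxcl1 and Ccl2 were higher with ADT in Trp53-deleted mice (log2 ratios 3.34, 3.20 and 2.63). Ccl2 was at 85.3 CPM in Trp53-deleted ADT and 31.5 CPM there without the C1qa-led cluster. Cxcl10 was at 257 CPM in the endothelial clusters of Trp53-deleted ADT and 305 CPM in its other cells, so this chemokine was not higher in endothelium than around it.

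**Figure D3:**
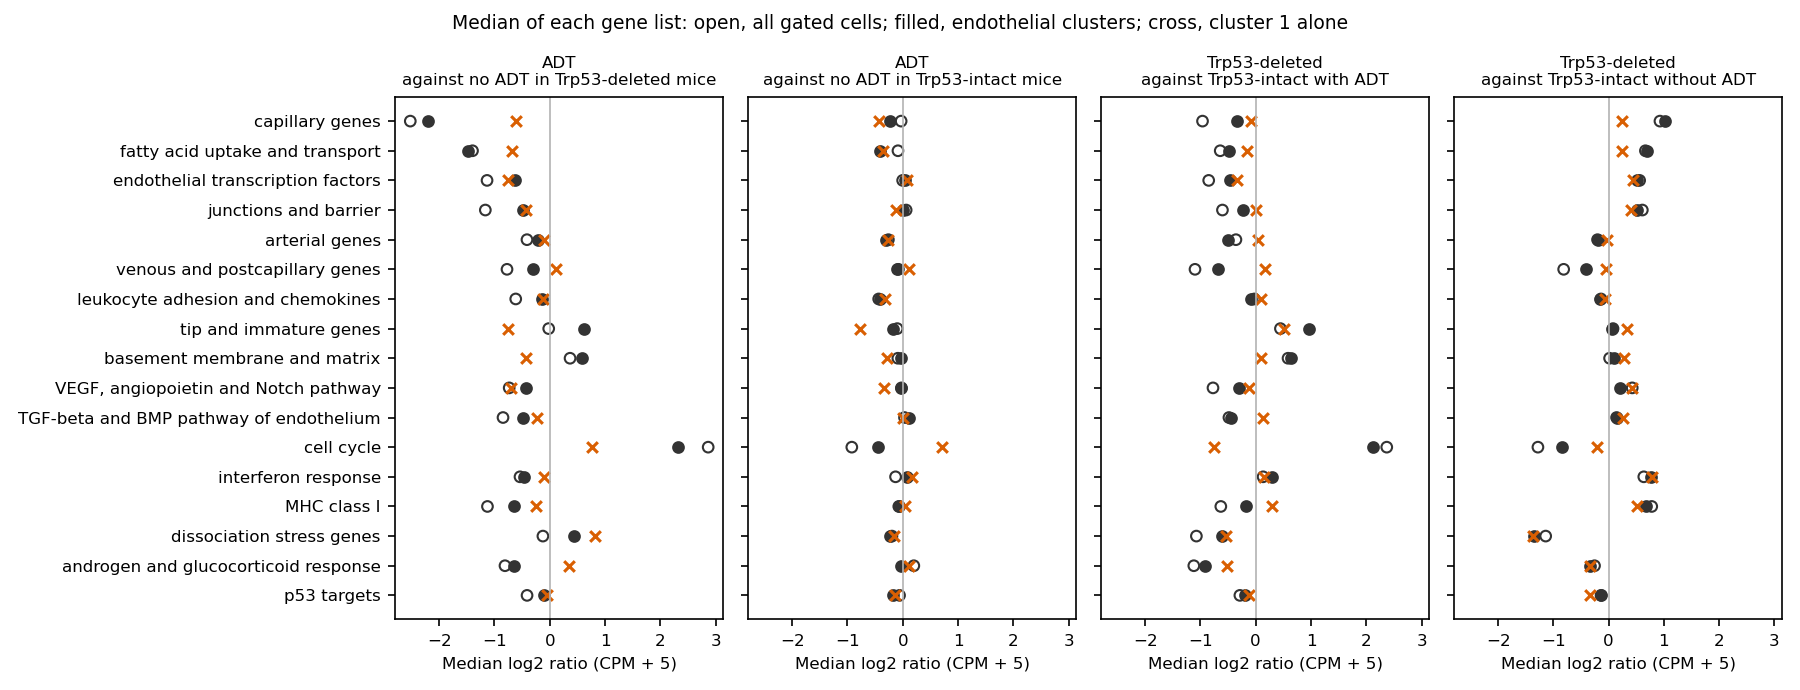
Median log2 ratio of each gene list (x axis, CPM plus 5) in the 4 comparisons, for all gated cells (open circles), the endothelial clusters (filled circles) and cluster 1 alone (crosses), drawn where at least 5 genes were measured. Capillary genes are at -2.20 with ADT in Trp53-deleted mice and 1.03 for Trp53 status without ADT, and for tip, basement membrane and venous genes the crosses lie apart from the filled circles.

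Without ADT, interferon-induced genes were higher in Trp53-deleted endothelium. Of 38 measured, 25 were higher and 1 lower than in Trp53-intact (median 0.77), where 24% of all genes were higher and the median gene was at 0.22. Over all members 21 of 38 were higher, and in cluster 1 alone 22 of 36 (median 0.79), so the difference was as large in that cluster. With ADT, 15 of 39 were higher and 2 lower in Trp53-deleted ADT than in Trp53-intact ADT (median 0.29), and in cluster 1 alone 8 of 30 were higher and 3 lower. With ADT in Trp53-deleted mice 15 of 39 were lower and 4 higher (median -0.47), and in cluster 1 alone 6 of 33 were lower and 7 higher. Of all genes 17.2% were higher between the ADT libraries, and 23.3% were lower with ADT in Trp53-deleted mice.

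The promoters of 3 of these genes are shown because they carry the motif to which interferon-activated factors bind. The motif searched was GAAA, any 2 bases and GAAA again, on both strands, in the 300 bases from 250 before to 50 after each start site, taken from RefSeq promoters on GRCm38.p6. It was present at 1079 of 27025 genes (3.99%), and at 16 of the 29 interferon genes that had a promoter in that table (55.2%). The 3 genes are those of the list with the motif and the highest ratios for Trp53 status without ADT among genes with 50 UMIs or more, so their ratios describe the choice. Capitals mark the motif, which on the opposite strand reads TTTC, 2 bases and TTTC, and a match is a description of letters and not a binding site.
Gbp3, chr3:142559794-142560093, plus strand, with 2 overlapping matches: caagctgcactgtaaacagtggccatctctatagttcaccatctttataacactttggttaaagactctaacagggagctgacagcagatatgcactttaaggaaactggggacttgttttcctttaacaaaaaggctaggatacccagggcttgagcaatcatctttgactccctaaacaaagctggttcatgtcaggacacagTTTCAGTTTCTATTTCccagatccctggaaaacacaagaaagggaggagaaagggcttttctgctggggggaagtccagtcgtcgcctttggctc
Irgm1, chr11:48871371-48871670, minus strand, with 2 overlapping matches: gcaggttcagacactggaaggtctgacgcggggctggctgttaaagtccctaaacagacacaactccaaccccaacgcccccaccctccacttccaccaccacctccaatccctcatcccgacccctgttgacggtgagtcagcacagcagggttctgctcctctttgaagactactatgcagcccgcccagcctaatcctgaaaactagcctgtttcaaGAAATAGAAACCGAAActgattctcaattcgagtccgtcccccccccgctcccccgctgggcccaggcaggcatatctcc
Gbp5, chr3:142496684-142496983, plus strand, with 1 match: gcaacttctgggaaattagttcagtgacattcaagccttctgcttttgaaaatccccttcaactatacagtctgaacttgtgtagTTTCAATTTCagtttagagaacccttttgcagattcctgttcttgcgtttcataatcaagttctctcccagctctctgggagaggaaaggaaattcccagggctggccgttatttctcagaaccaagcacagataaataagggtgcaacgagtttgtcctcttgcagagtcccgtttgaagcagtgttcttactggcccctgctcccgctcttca

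Gbp3, Gbp4, Gbp5 and Gbp7 are guanylate-binding proteins that restrict intracellular pathogens, and Irgm1 is a related GTPase. Gbp3 was at 66.5 CPM (57.3 to 76.7) in Trp53-deleted ADT against 31.0 (19.7 to 46.6) in Trp53-intact ADT, and at 99.6 (76.4 to 128) in Trp53-deleted against 29.7 (20.8 to 41.1) in Trp53-intact. It was thus higher in the deleted library of both pairs. Irgm1 was at 107 CPM (95.6 to 120) in Trp53-deleted ADT against 72.9 (54.8 to 95.1) in Trp53-intact ADT, and at 101 (77.8 to 129) in Trp53-deleted against 33.0 (23.6 to 44.9) in Trp53-intact. Gbp5 differed from both, at 19.9 CPM (15 to 25.9) in Trp53-deleted ADT against 47.2 (32.9 to 65.7) in Trp53-intact ADT, and at 86.7 (65.2 to 113) in Trp53-deleted against 28.8 (20.1 to 40.1) in Trp53-intact. Gbp4 had the largest ratio of the list without ADT, at 209 CPM in Trp53-deleted against 58.5 in Trp53-intact, and Gbp4 and Gbp7 belong to a family of similar sequences whose reads counting may split. Irf7, a transcription factor that amplifies this response, was at 125 CPM in Trp53-deleted against 43.7 in Trp53-intact, and in the other cells at 139 CPM in Trp53-deleted against 97.8 in Trp53-intact. Ifi204, which macrophages express, was the one gene lower, at 20.9 CPM in Trp53-deleted against 44.5 in Trp53-intact.

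Antigen presentation by MHC class I had a like pattern. Without ADT 7 of 13 genes were higher in Trp53-deleted than in Trp53-intact and none lower (median 0.68), where 24% of all genes were higher. With ADT in Trp53-deleted mice 9 of 13 were lower and none higher (median -0.65), where 23.3% of all genes were lower. The list summed to 6790 CPM in the endothelial clusters of Trp53-deleted ADT against 10254 in Trp53-deleted. In the other cells it summed to 4923 CPM in Trp53-deleted ADT against 8993 in Trp53-deleted, so this difference was not limited to endothelium. Without ADT the other cells were at 8993 CPM in Trp53-deleted against 8134 in Trp53-intact. Tapbp, which loads peptides onto class I, was at 136 CPM in Trp53-deleted ADT, 398 in Trp53-deleted, 229 in Trp53-intact ADT and 190 in Trp53-intact. H2-T23, a non-classical class I gene, was at 215 CPM in Trp53-deleted ADT, 559 in Trp53-deleted, 297 in Trp53-intact ADT and 302 in Trp53-intact. Both were thus highest in Trp53-deleted and lowest in Trp53-deleted ADT. The class I genes H2-K1, H2-D1 and the H2-Q genes are near-identical copies, so their separate counts are uncertain. In cluster 1 the counts were 6 of 13 higher without ADT and 2 of 13 lower with ADT in Trp53-deleted mice, and without the C1qa-led cluster 8 of 13 and 5 of 13.

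MHC class II, which serves mainly macrophages and B cells, was lower in the endothelial clusters than in the other cells of every library. Its 9 genes summed to 552 CPM in the endothelial clusters of Trp53-deleted ADT, 459 in Trp53-deleted, 131 in Trp53-intact ADT and 394 in Trp53-intact, against 6259.8 to 11727 CPM in the other cells. With ADT in Trp53-intact mice all 5 measured genes were lower (median -1.43), and all 6 were higher in Trp53-deleted ADT than in Trp53-intact ADT (median 1.36). Of all genes 6.99% were lower in the first comparison and 17.2% higher in the second. The 8 macrophage markers summed to 408 CPM in Trp53-deleted ADT, 186 in Trp53-deleted, 66.1 in Trp53-intact ADT and 282 in Trp53-intact, with 2 of the 8 at 0 in Trp53-intact ADT and none at 0 elsewhere. Both sums were highest in Trp53-deleted ADT and lowest in Trp53-intact ADT, but without ADT class II was higher and the macrophage markers lower in Trp53-deleted than in Trp53-intact. Without the C1qa-led cluster class II summed to 436 CPM in Trp53-deleted ADT, 461 in Trp53-deleted, 133 in Trp53-intact ADT and 251 in Trp53-intact, and the macrophage markers to 220.2 CPM in Trp53-deleted ADT, 185 in Trp53-deleted, 66.6 in Trp53-intact ADT and 120.4 in Trp53-intact. The part of macrophage RNA in the class II result was not tested.

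In the endothelial clusters, genes that respond to handling and heat stood highest in Trp53-intact, where the list summed to 38866 CPM. It summed to 20375 CPM in Trp53-deleted ADT, 12991 in Trp53-deleted and 29892 in Trp53-intact ADT. In the other cells the list was highest in Trp53-intact ADT, at 27990 CPM. There it summed to 22574 CPM in Trp53-intact, 17813 in Trp53-deleted ADT and 16661 in Trp53-deleted. Of 33 dissociation stress genes 26 were lower and 1 higher in Trp53-deleted than in Trp53-intact (median -1.36). Of all genes 8.46% were lower and 24% higher there. In cluster 1 alone 25 of 32 were lower, where 9.82% of all genes were. With ADT 17 of 33 were lower and none higher in Trp53-deleted ADT than in Trp53-intact ADT (median -0.61). In that comparison 13.5% of all genes were lower and 17.2% higher. Hspa1a, the inducible heat shock protein 70, was at 35.2 CPM in Trp53-deleted ADT, 247 in Trp53-deleted, 129.6 in Trp53-intact ADT and 2303 in Trp53-intact. Its level in the other cells was 93.8 CPM in Trp53-deleted ADT, 203 in Trp53-deleted, 83.3 in Trp53-intact ADT and 1017 in Trp53-intact, so this difference was not limited to endothelium. Hspb1, a small heat shock protein, was at 524 CPM in Trp53-deleted ADT, 728 in Trp53-deleted, 1352 in Trp53-intact ADT and 5002 in Trp53-intact. Fos was at 1534 CPM in Trp53-deleted ADT, 530.1 in Trp53-deleted, 3517 in Trp53-intact ADT and 2681 in Trp53-intact. Ier3 stands in both this list and the venous list, and the part of handling in the venous and adhesion differences was not tested.

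**Figure D4:**
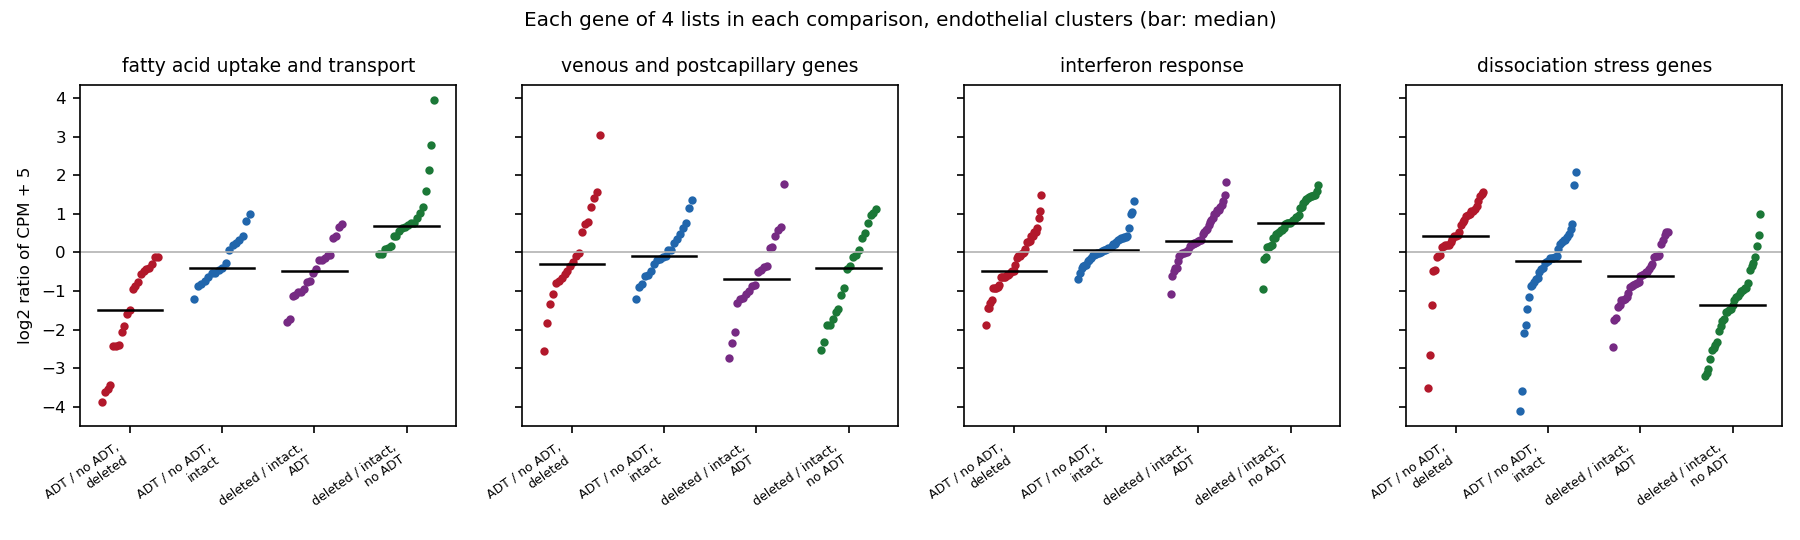
Log2 ratio of CPM plus 5 (y axis) of each measured gene of 4 lists in the endothelial clusters, sorted within each of the 4 comparisons, with a bar at the median. Fatty acid genes are nearly all below 0 with ADT in Trp53-deleted mice (median -1.49), interferon genes nearly all above 0 for Trp53 status without ADT (median 0.77), and stress genes mostly below 0 there (median -1.36).

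Core endothelial genes, VEGF, angiopoietin and Notch pathway genes and transcription factors of endothelium were lower more often than higher with ADT in Trp53-deleted mice, where 23.3% of all genes were lower. The core endothelial genes were present in all libraries, with 14 of 30 lower and 1 higher with ADT in Trp53-deleted mice (median -0.52). These 30 include the gate genes Pecam1, Cdh5, Flt1 and Plvap, which chose the cells, so the count in part describes the choice. Podxl, a luminal sialomucin, was at 282 CPM in Trp53-deleted ADT, 1457 in Trp53-deleted, 707 in Trp53-intact ADT and 623 in Trp53-intact. Among receptors of the VEGF and angiopoietin pathways, Kdr was at 562 CPM in Trp53-deleted ADT, 909 in Trp53-deleted, 557 in Trp53-intact ADT and 610 in Trp53-intact, and Tie1 was at 205 CPM in Trp53-deleted ADT, 492 in Trp53-deleted, 287 in Trp53-intact ADT and 293 in Trp53-intact. Over that pathway and Notch, 12 of 29 genes were lower and 4 higher with ADT in Trp53-deleted mice (median -0.43), and 6 of 30 lower and 3 higher in Trp53-intact mice (median -0.03). The Notch ligand Dll4 lay between 150.4 and 186 CPM. Of 30 transcription factors of endothelium, 16 were lower and 1 higher with ADT in Trp53-deleted mice (median -0.62), Epas1, the hypoxia factor, among them at 389 CPM in Trp53-deleted ADT and 1213 in Trp53-deleted. In cluster 1 alone 15 of 26 were lower. Of 19 arterial genes, 6 were lower and 3 higher with ADT in Trp53-deleted mice (median -0.21), and 7 were lower and 2 higher with ADT in Trp53-intact mice (median -0.31), where 6.99% of all genes were lower and 10.4% higher.

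Steroid-responsive genes were not lower with ADT in both genotypes. Of 25 androgen and glucocorticoid response genes, 14 were lower and 2 higher with ADT in Trp53-deleted mice (median -0.65), but 4 were lower and 4 higher in Trp53-intact mice (median -0.02). Of all genes 23.3% were lower and 16.1% higher in Trp53-deleted mice, and 6.99% lower and 10.4% higher in Trp53-intact mice. In cluster 1 alone 5 of 20 were lower and 8 higher with ADT in Trp53-deleted mice (median 0.35). There 28.2% of all genes were lower and 14.3% higher. Fkbp5, a co-chaperone induced by steroid hormones, was at 71.5 CPM in Trp53-deleted ADT and 56.2 in Trp53-deleted, and at 139 in Trp53-intact ADT and 98.9 in Trp53-intact.

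With ADT, some genes were apart the same way and some in opposite ways in the 2 genotypes, in comparisons that share no library. In the endothelial clusters 53 were higher and 104 lower in both, of 5162 measured in both, which is 7.18% of the 738 higher in Trp53-deleted mice and 10.1% of the 527 higher in Trp53-intact mice, and 8.12% of the 1281 lower and 30.1% of the 345 lower. Another 64 were higher in Trp53-deleted and lower in Trp53-intact mice and 156 the reverse, so 220 went opposite ways and 157 the same way. In Trp53-deleted mice more genes were lower than higher (1281 against 738), and in Trp53-intact mice more were higher than lower (527 against 345). These uneven totals by themselves favour genes apart in opposite ways, so the larger number is not read as a result. Over all 5162 genes, 14.3% were higher and 24.8% lower in Trp53-deleted mice, so genes higher in Trp53-intact mice were less often than all genes higher in Trp53-deleted mice (10.1%), and those lower were more often lower (30.1%). These shares have no test. Col18a1, the death receptor kinase Ripk1 and the growth factor inhibitor Spry1 were among those higher. Fabp4 and the clock output genes Dbp and Nr1d1 were among those lower. Dbp was at 16.7 CPM (12.3 to 22.2) in Trp53-deleted ADT and 222 (186 to 262) in Trp53-deleted, and at 36.4 (24 to 53) in Trp53-intact ADT and 94.8 (78.2 to 114) in Trp53-intact. Nr1d1 was at 13.2 CPM in Trp53-deleted ADT and 125 in Trp53-deleted, and at 48.6 in Trp53-intact ADT and 113 in Trp53-intact. In the other cells Dbp was at 31.3 CPM in Trp53-deleted ADT and 50.8 in Trp53-deleted, and at 24.0 in Trp53-intact ADT and 21.7 in Trp53-intact, so the difference in Trp53-intact mice was not found outside endothelium. The labels do not give the time of day of collection. Igfbp3, a carrier of insulin-like growth factors, was at 1115 CPM in Trp53-deleted ADT and 2530.2 in Trp53-deleted, and at 1253 in Trp53-intact ADT and 2424 in Trp53-intact.

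By Trp53 status, 87 genes were higher and 138 lower both with and without ADT in the endothelial clusters, of 5132 measured in both. The shares were 12.3% of the 710 higher with ADT and 7.12% of the 1222 higher without, and 17.1% of the 806 lower with ADT and 32.5% of the 424 lower without. Another 66 were higher with ADT and lower without it and 234 the reverse, which makes 300 against 225 the same way. Here too the totals were uneven, with 806 lower against 710 higher with ADT, and 1222 higher against 424 lower without it. This by itself favours genes apart in opposite ways, so the larger number is not read as a result. Over all 5132 genes, 13.8% were higher and 15.7% lower with ADT, so the 7.12% lay below the share of all genes and the 32.5% above it. Besides Aplnr, the intermediate filament Nes of new vessels was higher, at 95.6 CPM in Trp53-deleted ADT against 33.7 in Trp53-intact ADT, and at 124 in Trp53-deleted against 47.8 in Trp53-intact. Rgcc, Col15a1 and Gpihbp1 were also higher in both. Among those lower besides the venous genes was Rnd1, at 70.4 CPM in Trp53-deleted ADT against 249.7 in Trp53-intact ADT, and at 40.2 in Trp53-deleted against 452 in Trp53-intact. Metallothionein Mt2 was at 21.7 CPM in Trp53-deleted ADT against 209 in Trp53-intact ADT, and at 53 in Trp53-deleted against 293 in Trp53-intact, and in the other cells at 75.7 in Trp53-deleted ADT against 1164 in Trp53-intact ADT, and at 382 in Trp53-deleted against 476 in Trp53-intact.

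Some of the largest single-gene differences were found in 1 library and in its other cells too. Gdpd3, a lysophospholipase, was at 3.55 CPM in Trp53-deleted ADT, 41.8 in Trp53-deleted, 219 in Trp53-intact ADT and 2.47 in Trp53-intact, and its level in the other cells was 6.31 CPM in Trp53-deleted ADT, 19.4 in Trp53-deleted, 59.9 in Trp53-intact ADT and 10.6 in Trp53-intact. Secretory prostate markers summed to 12.1 CPM in the endothelial clusters of Trp53-deleted ADT, 108 in Trp53-deleted, 5.40 in Trp53-intact ADT and 162 in Trp53-intact, and in the other cells to 145 CPM in Trp53-deleted ADT, 3116 in Trp53-deleted, 148 in Trp53-intact ADT and 3535 in Trp53-intact. Svs5, a seminal vesicle gene, reached 349 CPM in the endothelial clusters of Trp53-deleted and 11000.2 CPM in its other cells. Haemoglobin RNA in Trp53-deleted members lay in 1 cell with 3725 of 3743 UMIs.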

How the data were processed

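Single-cell RNA libraries from 4 groups of mouse prostates, 1 per group, were deposited by the authors as 1 matrix of UMI counts over 30905 genes, per the file headers, with cells assigned to libraries by their barcode suffix. The submitters' processing notes name Cell Ranger 2.1.1 and mm10, while the matrix header gives software version 3.1.0. Kept cells, gate and depths are given with the results. Counts were summed over the gated cells of a library and expressed as UMIs per 1000000 (CPM), and ratios are log2 of CPM plus 5. With 1 library per group no test was made: a gene was called at 1.5-fold with at least 50 UMIs over both libraries, and intervals are exact 95% Poisson or Clopper-Pearson intervals. A level of 0 was bounded by 3 counts per library. The counting was tested on simulated data.

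Gated cells were clustered in scanpy 1.11.5 (1500 variable genes, 20 components, 15 neighbours, resolution 0.5) under Python 3.11.15, and clusters were named from fixed markers. Doublets were not removed in the main values; leaving out the highest Scrublet scores (a share of 0.008 per 1000 barcodes) was an alternative. Shares of cells were compared after thinning to 2000 UMIs. Other alternatives were a stricter gate, 10% mitochondrial UMIs, cells with 3 or more stromal UMIs left out, pseudocounts of 1 and 20 CPM, means over cells, centring, and limits of 20 and 200 UMIs. Leaving out the mural-led and Cdkn2a-led clusters, leaving out the C1qa-led cluster as well, and using cluster 1 alone, were added after the data were seen. Named genes were the 8 highest and 8 lowest per comparison by log2 of CPM plus 10, with at least 100 UMIs and at least 2 times the level of the other cells, up to 4 members each way per list, and cluster-leading genes; a few further list members, among them Angpt2, Mdm2 and Dll4, were taken after their values were seen. The members and lists were chosen with earlier results of these data known. A further item of the shared genotype, and some single genes, are not reported here.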

Additional observations from a re-analysis of the deposited data

Results flagged for a closer look

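Of the gene lists, and of the genes named in the text or by the naming rule with at least 50 UMIs in both comparisons, 21 lay at least 1.5-fold apart in opposite directions with ADT in the 2 genotypes, in the endothelial clusters, and the differences between genotypes were not tested because each group is 1 library. Each pair below is the log2 ratio with ADT in Trp53-deleted mice and then in Trp53-intact mice. The median of the mesenchymal genes was 0.62 in Trp53-deleted mice and -0.63 in Trp53-intact mice, over 17 and 15 measured genes, and these genes summed to 17665 CPM in the other cells of Trp53-deleted ADT against 2638 to 4076 CPM in those of the other libraries. The part of free RNA in that result was not tested. Gem, a small GTPase of the immediate early response, was at 1.71 in Trp53-deleted mice and -2.46 in Trp53-intact mice. Hbegf, a growth factor of the EGF family, was at 1.47 in Trp53-deleted mice and -1.03 in Trp53-intact mice, Rnd1 at 0.74 in Trp53-deleted mice and -0.84 in Trp53-intact mice, and the mechanosensitive channel Piezo2 at 1.15 in Trp53-deleted mice and -0.78 in Trp53-intact mice. Cxcl1 was at 3.20 in Trp53-deleted mice and -1.33 in Trp53-intact mice, Icam1 at 1.57 in Trp53-deleted mice and -0.90 in Trp53-intact mice, Lgals1 at 2.95 in Trp53-deleted mice and -0.71 in Trp53-intact mice, and Top2a at 4.51 in Trp53-deleted mice and -2.13 in Trp53-intact mice. Of the macrophage genes, C1qa was at 1.52 in Trp53-deleted mice and -2.03 in Trp53-intact mice, C1qb at 1.06 in Trp53-deleted mice and -2.34 in Trp53-intact mice, Lyz2 at 0.94 in Trp53-deleted mice and -1.83 in Trp53-intact mice, and the class II gene H2-Eb1 at 0.99 in Trp53-deleted mice and -1.46 in Trp53-intact mice. All of these lead the C1qa-led cluster, which had 89 of its 99 cells in Trp53-deleted ADT. The part of that cluster in these ratios was not tested. The remaining 8 were lower with ADT in Trp53-deleted mice and higher in Trp53-intact mice. Fmo2, a monooxygenase, was at -3.01 in Trp53-deleted mice and 1.07 in Trp53-intact mice, and Spock2, a matrix proteoglycan, at -2.97 in Trp53-deleted mice and 1.19 in Trp53-intact mice. Mal was at -1.92 in Trp53-deleted mice and 1.14 in Trp53-intact mice, and Atxn1 at -1.51 in Trp53-deleted mice and 0.67 in Trp53-intact mice. Ehd3 was at -1.08 in Trp53-deleted mice and 0.59 in Trp53-intact mice, and Ctbp2 at -0.79 in Trp53-deleted mice and 1.25 in Trp53-intact mice. Gbp5 was at -1.88 in Trp53-deleted mice and 0.63 in Trp53-intact mice, and Cp at -1.28 in Trp53-deleted mice and 1.26 in Trp53-intact mice. Ccl2, Cenpf, Col1a1, Csf3, Gdpd3, Lcp2, Lpl, Lyve1 and Mki67 also lay apart in opposite directions, but had fewer than 50 UMIs in at least 1 of both comparisons.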

How the results depend on the processing

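No paired analysis was possible because each group has 1 library, and no library could be left out. Gene counts over all members moved by more than 1.5 times as follows, and the cause was not tested unless the setting itself takes out genes or cells. For ADT in Trp53-deleted mice, 2225 genes higher became 1481 with the stricter gate, 776 without cells holding stromal UMIs, 1184 in the endothelial clusters, 865 without the C1qa-led cluster too, 239 in cluster 1, 1418 at 200 UMIs or more and 1169 among genes at least as high as in other cells. The 2762 lower became 1172 without stromal UMIs, 1715 in the endothelial clusters, 1274 without the C1qa-led cluster too, 470 in cluster 1 and 1236 at 200 UMIs. For ADT in Trp53-intact mice, 600 higher became 343 in cluster 1, 259 with a pseudocount of 20 CPM, 1001 at 20 UMIs and 136 at 200 UMIs, and 445 lower became 269 with that pseudocount, 676 with means over cells, 774 at 20 UMIs, 145 at 200 UMIs and 249 among genes at least as high as in other cells. For Trp53 status with ADT, 2308 higher became 797 without stromal UMIs, 1267 in the endothelial clusters, 886 without the C1qa-led cluster too, 139 in cluster 1, 1495 with a pseudocount of 20 CPM, 1410 at 200 UMIs and 1174 among genes as high as in other cells. The 1884 lower became 1184 with the stricter gate, 739 without stromal UMIs, 994 in the endothelial clusters, 723 without the C1qa-led cluster too, 271 in cluster 1, 1185 with that pseudocount, 1244 with means over cells and 938 at 200 UMIs. For Trp53 status without ADT, 1510 higher became 746 in cluster 1, 946 with that pseudocount, 775 when centred, 2293 at 20 UMIs and 345 at 200 UMIs, and 554 lower became 319 in cluster 1, 970 when centred, 253 at 200 UMIs and 337 among genes as high as in other cells.

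Turned signs are listed here only for values that were at least 1.5-fold apart over all members. Medians that so turned in cluster 1 were those of pan-endothelial (0.23, from -0.73 over all members), venous (0.17, from -1.10), MHC class I (0.29, from -0.63), junction (0.0026, from -0.60) and cell cycle genes (-0.75, from 2.37) for Trp53 status with ADT. With ADT in Trp53-deleted mice cluster 1 turned venous genes (0.11, from -0.77) and steroid response genes (0.35, from -0.81), and with ADT in Trp53-intact mice cell cycle genes (0.70, from -0.92). Means over cells turned pan-endothelial (0.0449), MHC class I (0.11) and junction genes (0.0249) for Trp53 status with ADT, and venous (0.50) and adhesion genes (0.0249, from -0.62) for ADT in Trp53-deleted mice. Lymphatic genes for Trp53 status without ADT went from -0.87 to 0.0069 with the stricter gate and 0.14 in cluster 1. MHC class I genes for Trp53 status with ADT were at 0.0281 in the endothelial clusters without the C1qa-led cluster. Single genes turned as follows. Rgs5 with ADT in Trp53-intact mice was at 1.33 over all members, -1.47 in the endothelial clusters with or without the C1qa-led cluster and -1.69 in cluster 1, and for Trp53 status with ADT at -1.76, 2.51 (2.90 without the C1qa-led cluster) and 3.20. Rasl11a with ADT in Trp53-intact mice was at 1.19 and, in the endothelial clusters, -0.14 (-0.13 without the C1qa-led cluster). Aldh1a3 for Trp53 status with ADT was at 2.23 and, with means over cells, at -0.515, and Esm1 with ADT in Trp53-deleted mice at -1.04 and 0.68. In cluster 1, with ADT in Trp53-deleted mice Emp1 was at -0.0374 (0.84 over all members) and Hspb1 at 0.42 (-0.97), and for Trp53 status with ADT Hspa1b was at 0.18 (-1.54) and Selp at 0.0212 (-2.75).

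The share of kept cells was 1.98% with the stricter gate, 1.03% without stromal UMIs and 1.25% in the endothelial clusters without the C1qa-led cluster in Trp53-deleted ADT, 1.19% without stromal UMIs in Trp53-deleted and 0.839% in Trp53-intact ADT, and 1.42%, 1.25% and, in the endothelial clusters, 1.46% (1.42% without the C1qa-led cluster) in Trp53-intact. Mural-like cells were 16.7% of members in Trp53-intact and 9.72% both at resolution 1.0 and without stress and interferon genes. Of the remaining values, 120 of the main ones and 2103 single-gene or list values stayed within their limits. Another 858 single-gene or list values moved beyond them, including some that turned in sign from less than 1.5-fold over all members. In the endothelial clusters 3 counts amount to 1.07 CPM in Trp53-deleted ADT, 4.82 in Trp53-deleted, 4.05 in Trp53-intact ADT and 2.47 in Trp53-intact.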
